A study of Mus musculus with 16 samples.

Results

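The 37 genes described here are markers of the cell cycle, measured in endothelial cells (EC) of the mouse lung by single-cell RNA sequencing. They were taken by name from the deposited table of unique molecular identifiers (UMIs), in which all 37 were found among 28692 genes. For the description they fell into 11 S-phase members, which act in DNA replication and nucleotide supply, 24 mitotic members, which act from G2 to cell division, and 2 broad members, Hmgb2 and Stmn1, which dividing cells carry at high level but which many other cells carry too. The question asked of them was how many UMIs each had at each stage of the tumour model, and in how many cells.

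All mice were female C57BL/6N, and no source used here states their age or how many animals were pooled. Lungs were taken from wild-type animals at d0, from bearers of a primary tumour at d15, after the tumour had been cut out at d22, and from bearers of metastases at d36. Tumours came from subcutaneous implants of Lewis lung carcinoma (LLC) cells, a line derived from a tumour of the mouse lung. Lung EC were sorted by flow cytometry and counted with the 10x Genomics Chromium 3′ kit, version 2. The labels list 16 libraries, 4 a day. The names of the cells give their day and nothing on the library, so that each day was 1 pooled sample. No difference between days could be tested, no p-value was computed, and every interval covers counting error only.

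Sets of 4 values below follow the order d0, d15, d22, d36, and sets of 3 ratios the order d15, d22, d36. After filtering, 8955 EC remained (2655, 1494, 3212 and 1594). Median depth per cell was 7653, 4184, 7665.5 and 3409 UMIs. Pairs of days with like depth were therefore d0 with d22 and d15 with d36. Of 9000 distinct cell barcodes, 36 occurred at 2 days. The pan-endothelial marker list was found in 99.9% to 100% of cells at each day, led by Cldn5. Other measures differed by day: the macrophage and monocyte list had 34.3, 81.7, 35.9 and 83.6 UMIs in every 1000000, led by Ly6c2, and the median mitochondrial share was 1.88%, 1.96%, 1.61% and 2.86%. Their part in the results was not tested.

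Cells prepare for division in order. In S phase the MCM helicase unwinds DNA, PCNA clamps the polymerase, and ribonucleotide reductase, thymidylate synthase and thymidine kinase supply nucleotides. Before and in mitosis, CDK1 with the A and B cyclins drives entry, the spindle and kinetochores move the chromosomes, and the anaphase-promoting complex ends the phase by marking cyclins for destruction. Most of the mitotic genes are switched on late in the cycle through promoter elements named CHR and CCAAT, and many replication genes through E2F sites. Lung endothelium in adult mice divides rarely.

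Promoter sequence was at hand for 31 of the 37 members in RefSeq's table for GRCm38.p6, which gives 250 bases before and 50 bases after each start. A CHR element (TTTGAA or TTTAAA, on either strand) lay in 18 of 20 mitotic members with a sequence, in 4 of 10 S-phase members and in 27.6% of all 32851 promoters of that length. A CCAAT box, again on either strand, lay in 18 of 20 mitotic and 8 of 10 S-phase members, against 37.4% of all promoters. Both together lay in 17 of 20 mitotic members and in 3 of 10 S-phase members, with 10.7% overall. An E2F site (TTTCCCGC, TTTGGCGC, TTTCGCGC or TTTGCCGC) lay in 1 mitotic member, Cdk1, and in 4 S-phase members, Mcm3, Mcm5, Mcm6 and Mcm7, with 2.27% overall. These are matches of letters, and binding was not measured.

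The windows of 100 bases printed here show the layouts, each taken directly upstream of annotated exons, 5′ to 3′ on the gene's strand. Top2a, Cdk1, Cdc20 and Kif11 were picked because a CHR element and a CCAAT box both fall within the window, as in Plk1 and in no other mitotic window. Mcm6 and Rrm1 were picked from the replication genes. Capitals mark a CHR element (TTTGAA, or TTCAAA where it lies on the other strand), a CCAAT box (CCAAT or ATTGG) or, in Mcm6, the E2F site TTTGGCGC; none of the marked stretches overlap.
Top2a: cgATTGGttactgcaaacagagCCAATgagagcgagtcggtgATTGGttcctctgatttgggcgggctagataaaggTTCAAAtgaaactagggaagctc
Cdk1: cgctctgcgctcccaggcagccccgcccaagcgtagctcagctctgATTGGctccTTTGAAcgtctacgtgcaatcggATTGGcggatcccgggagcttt
Cdc20: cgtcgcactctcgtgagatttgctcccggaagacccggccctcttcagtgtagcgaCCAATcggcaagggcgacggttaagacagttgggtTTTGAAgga
Kif11: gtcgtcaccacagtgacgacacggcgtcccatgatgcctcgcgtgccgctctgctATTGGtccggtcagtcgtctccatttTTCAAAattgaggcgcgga
Mcm6: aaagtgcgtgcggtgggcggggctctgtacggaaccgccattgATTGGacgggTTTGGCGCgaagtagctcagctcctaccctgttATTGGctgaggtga
Rrm1: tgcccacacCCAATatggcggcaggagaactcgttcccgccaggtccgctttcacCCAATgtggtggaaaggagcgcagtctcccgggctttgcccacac
They lie, in GRCm38.p6, at chr11:99024190-99024289 (minus strand), chr10:69352939-69353038 (minus), chr4:118437353-118437452 (minus), chr19:37376282-37376381 (plus), chr1:128359706-128359805 (minus) and chr7:102441595-102441694 (plus). The 4 mitotic windows hold both elements by the way they were picked, and the Mcm6 window has its E2F site between 2 CCAAT boxes.

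Summed mitotic UMIs were lower at each later stage than in wild-type lung, and lowest at d15, whereas the summed replication genes were lower by less. The 24 mitotic members had 4466, 233, 2987 and 680 UMIs. The values of the table pile up at multiples of 4, so levels are given relative to 1000000 collapsed counts, each value being divided by 4 and rounded up. On that scale the mitotic list lay at 196.9 (95% interval 186.3 to 207.8), 47.7 (38.6 to 58.3), 112.6 (105.3 to 120.3) and 115.6 (101 to 131.7). Its ratios to d0 were 0.242 (0.195 to 0.298), 0.572 (0.525 to 0.623) and 0.587 (0.508 to 0.677). Only counting error is covered, and since the UMIs lie in few cells the intervals are too narrow. Between the shallower days, d36 lay 2.43 times above d15 (1.90 to 3.12).

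The 11 S-phase members summed to 7173, 1642, 7877 and 1550 UMIs. Their scaled level was 342.1, 259.9, 325.6 and 249.1. Against d0 this gave ratios of 0.760 (0.689 to 0.836), 0.952 (0.899 to 1.01) and 0.728 (0.659 to 0.804). The d22 interval spans 1, and the interval of d36 over d15 does so as well (0.959, 0.845 to 1.09). Under some other settings the d22 interval lay below 1. Examples are each cell thinned to 2500 UMIs (0.874, 0.807 to 0.947) and the list without Pcna (0.9175, 0.8595 to 0.9795). Under others, such as each cell thinned to 1200 UMIs (0.984, 0.888 to 1.09), it spanned 1. At d15 the mitotic interval lay wholly below the S-phase interval, and at d22 likewise, whereas at d36 both lists had intervals that met between 0.659 and 0.677. Since the mitotic intervals are too narrow, these positions describe the counts and are no test of a difference between the lists.

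A gene was called lower or higher when its level differed at least 1.5-fold between 2 days and the exact 95% interval of the ratio excluded 1, among genes with at least 30 UMIs in the pair. All 37 members met that minimum against d0. At d15, 27 of 37 were called lower, against 5.07% of all genes, and 0 higher, against 6.02%. At d22, 14 of 37 were lower, against 4.39%, and 0 higher, against 1.06%, and at d36, 13 were lower, against 6.25%, and 0 higher, against 4.81%. The lower members comprised 20 mitotic, 6 S-phase and 1 broad gene at d15, 14 mitotic genes and no other at d22, and 9 mitotic and 4 S-phase genes at d36. The median ratio over the 24 mitotic members was 0.120, 0.516 and 0.453 at d15, d22 and d36, with 0.986, 0.988 and 0.955 over all genes tested. For the 11 S-phase members the medians were 0.600, 0.940 and 0.700.

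With each cell thinned to 1200 UMIs, which leaves fewer counts per gene, 7, 5 and 4 members were called lower, while the mitotic list lay at 0.328, 0.569 and 0.598 of d0. Without the cells that carried at least 3 mitotic members, 3, 1 and 2 were, a setting that drops cells by the genes being measured (79.2% of the mitotic UMIs of d0 and 0% of those of d15). The mitotic ratios then became 0.892 (0.703 to 1.12), 0.743 (0.636 to 0.869) and 1.18 (0.948 to 1.45).

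**Figure D1:**
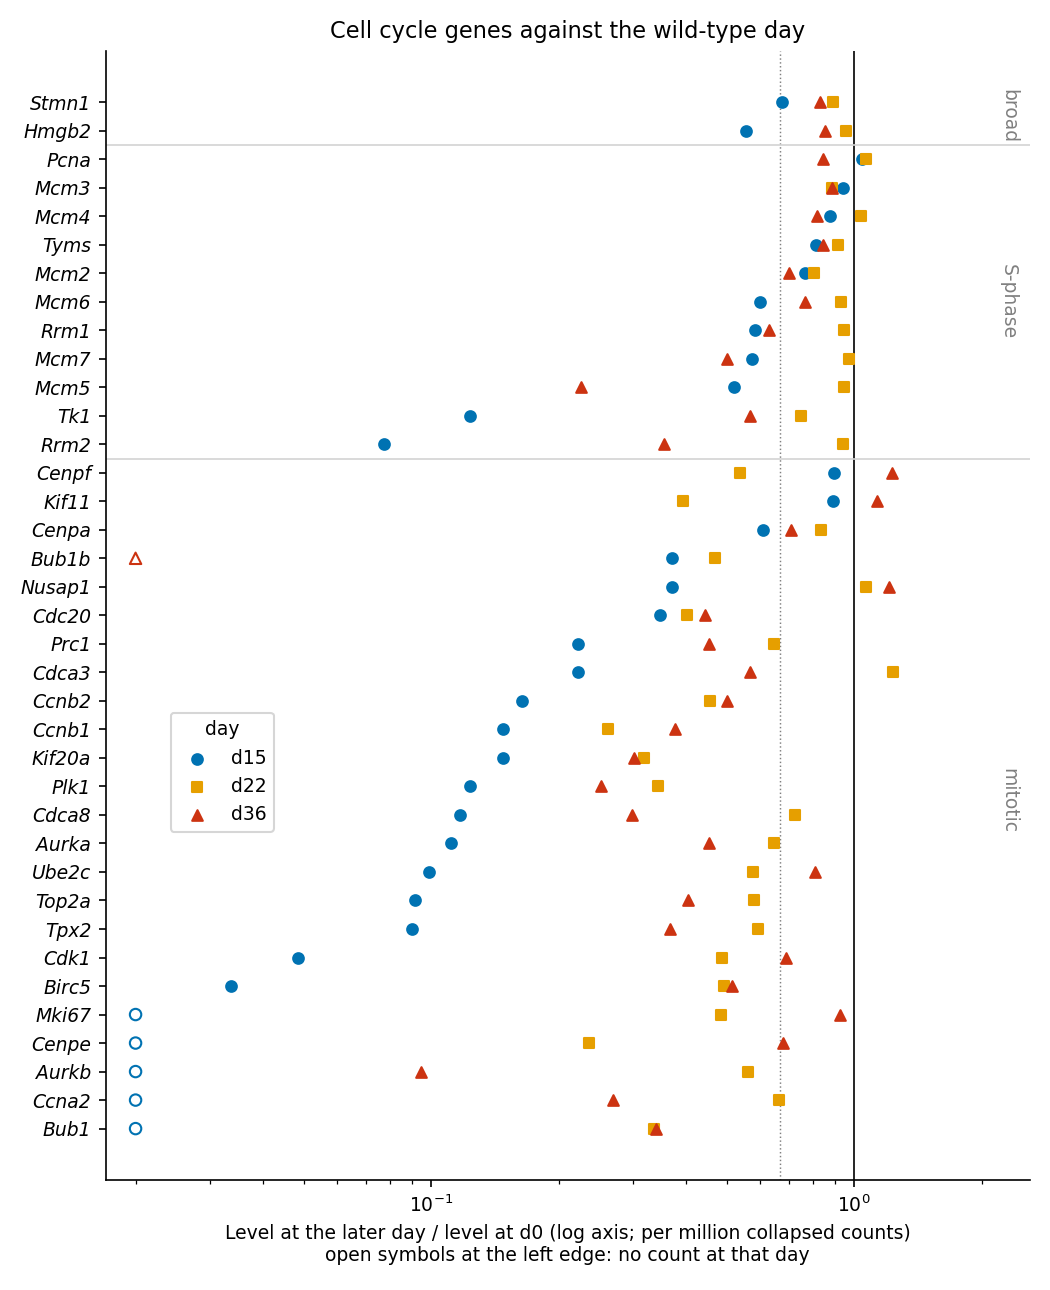
Ratio of each member's level at d15 (circles), d22 (squares) and d36 (triangles) to its level at d0, on a log axis, with 1 as a solid and 1 divided by 1.5 as a dotted line; open symbols at the left edge stand for no count. Most mitotic members lie far to the left at d15 (median 0.120), while S-phase members other than Rrm2 and Tk1 lie between 0.519 and 1.04 at that day.

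Few cells held several mitotic transcripts. A UMI of at least 1 of the 24 mitotic members was found in 349 of 2655, 85 of 1494, 300 of 3212 and 118 of 1594 cells. At least 3 members were found in 31 wild-type cells (1.17%, exact interval 0.795% to 1.65%). The number was 17 after resection (0.529%, 0.309% to 0.846%) and 4 with metastases (0.251%, 0.0684% to 0.641%). With the primary tumour there were 0 of 1494 cells, which allows a share of up to 0.201% by the limit of 3 counts and 0.247% by the upper end of the exact interval. At least 10 members occurred in 16, 0, 9 and 3 cells.

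Depth in deposited UMIs was evened out by drawing 1200 UMIs from every cell, which left out none. The cells with at least 3 mitotic members then numbered 23 (0.866%), 0, 12 (0.374%) and 4 (0.251%). The order of the days was kept, d0 first and d15 last. The exact upper end at d15, 0.247%, lay below the interval at d0 (0.550% to 1.30%) and within those at d22 (0.193% to 0.652%) and d36 (0.0684% to 0.641%). For the S-phase members the shares at full depth were 5.08%, 0.803%, 4.36% and 0.941%, or 135, 12, 140 and 15 cells. After the same thinning they were 1.02%, 0.0669%, 0.654% and 0.251%, or 27, 1, 21 and 4 cells. A cell of higher depth can show more members, so the values at full depth cannot be set across days. Since 1 UMI could not be taken as 1 molecule, drawing 1200 UMIs evens this out only in part. Drawing 800 collapsed counts gave 19 (0.723%), 0, 13 (0.410%) and 4 (0.415%) cells with at least 3 mitotic members. It left out 26, 505, 43 and 629 cells. The upper end at d15, 0.372%, again lay below the interval at d0 (0.436% to 1.13%).

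**Figure D2:**
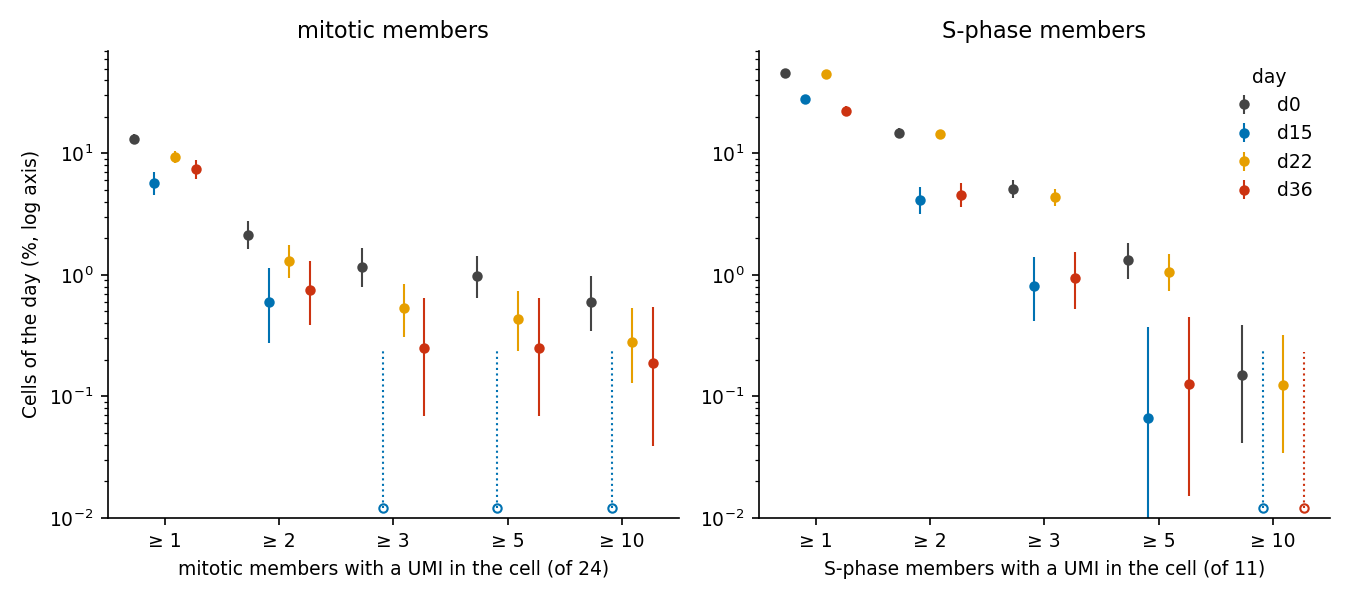
Share of each day's cells (log axis) in which at least 1, 2, 3, 5 or 10 mitotic (left) or S-phase members (right) had a UMI, with exact 95% intervals; open symbols with dotted lines mark 0 cells and the upper end of the interval. No d15 cell held 3 or more mitotic members, while 31 cells did at d0.

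The kinase that starts mitosis and its cyclins were close to absent at d15. Cdk1, the kinase itself, had 245, 4, 142 and 47 UMIs in 44, 1, 19 and 8 cells. Its ratios were 0.0483 (0.00121 to 0.278) and 0.488 (0.322 to 0.731), both called lower, and 0.690 (0.359 to 1.24), not called. Ccna2, the A-type cyclin of S phase and G2, had 132, 0, 91 and 12 UMIs. With a floor of 3 collapsed counts at d15 it was at least 3.80-fold lower there. Of the B-type cyclins, Ccnb1 counted 160, 4, 35 and 15 UMIs and was called lower at each later day, to 0.262 at d22 (0.133 to 0.486). Ccnb2 counted 197, 10, 110 and 23 UMIs and was called lower at d15 and d22 (0.164 and 0.455). Each of these genes was highest at d0 on the scaled level.

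Regulators of mitotic entry and of its end went the same way. Plk1, a kinase of mitotic entry, had 80, 1, 38 and 8 UMIs, and was called lower at d15 and d22 (0.123 and 0.343). Aurka, a spindle pole kinase, had 102, 4, 82 and 13 UMIs. Tpx2, which activates it, had 120, 4, 88 and 16. Both were called lower at d15 alone (0.111 and 0.0901). Cdc20, an activator of the anaphase-promoting complex, had 423, 42, 202 and 51 UMIs in 56, 12, 44 and 14 cells, with ratios of 0.348, 0.403 and 0.443, all called lower. Ube2c, the ubiquitin-conjugating enzyme of that complex, had 338, 3, 224 and 80 UMIs in 39, 3, 33 and 12 cells. It was lower at d15 (0.0990) and d22 (0.575), while its d36 ratio of 0.808 had an interval of 0.495 to 1.27. Cdca3, a promoter of mitotic entry, had 106, 5, 165 and 17 UMIs, and its ratio at d22 was the highest of the list (1.23, 0.759 to 2.03).

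Genes of the centromere and kinetochore were less even. Cenpe, a kinesin that moves chromosomes at kinetochores, had 86, 0, 22 and 17 UMIs. It was at least 2.50-fold lower at d15, and its ratio at d22 was 0.236 (0.0861 to 0.560). Cenpf, a kinetochore protein, had 291, 50, 162 and 74 UMIs in 54, 26, 41 and 33 cells, and was called lower at d22 only (0.538). At d15 its ratio was 0.894 (0.556 to 1.39) and at d36 1.23 (0.809 to 1.82). These ratios depend on the rounding up. Its 50 UMIs at d15 became 26 collapsed counts and its 74 at d36 became 35, against 97 from 291 at d0. As deposited, the share of Cenpf in all UMIs was lower at d15 and at d36 than at d0. Cenpa, the centromeric variant of histone H3, had 410, 58, 385 and 63 UMIs and was called lower at d15 only (0.609). For the checkpoint kinase gene Bub1 the UMIs were 36, 0, 7 and 4, and for Bub1b, whose product also acts in the checkpoint, 30, 4, 12 and 0. Neither was called at any day, since their intervals span 1 throughout.

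The chromosomal passenger complex, which corrects chromosome attachments, was represented by Birc5, Aurkb and Cdca8. Birc5 had 339, 2, 206 and 51 UMIs in 38, 1, 19 and 7 cells. Its ratios were 0.0337 (0.000844 to 0.192), 0.493 and 0.515, all called lower. Aurkb had 128, 0, 87 and 3 UMIs and was at least 3.60-fold lower at d15, with ratios of 0.561 at d22 and 0.0944 at d36 (0.00233 to 0.561). Cdca8 had 203, 2, 180 and 13 UMIs and was called lower at d15 (0.117) and d36 (0.298), but not at d22 (0.723, 0.484 to 1.08). These 3 members were thus lower at d15 and at d36. Incenp, another gene of the complex, is not a member and was counted in a further list. It was called lower at d15 but not at d22 or d36.

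Mki67, the gene of the Ki-67 antigen that coats mitotic chromosomes, had 112, 0, 63 and 35 UMIs in 17, 0, 11 and 4 cells. It was at least 3.30-fold lower at d15 and lay at 0.485 at d22 (0.260 to 0.878), and its d36 ratio of 0.927 had an interval of 0.390 to 1.98. Top2a, which untangles sister chromosomes, had 388, 12, 271 and 42 UMIs in 36, 3, 28 and 6 cells. Its ratios of 0.0918, 0.579 and 0.405 were all called lower. Among spindle genes, Kif20a and Prc1, which work at the central spindle in division, had 142, 5, 59 and 10 UMIs and 209, 7, 151 and 32 UMIs, and both were called lower at each later day. Nusap1, which binds spindle microtubules, had 145, 12, 188 and 45 UMIs, called lower at d15 only (0.371). Kif11, the motor that pushes the spindle poles apart, had 44, 4, 17 and 9 UMIs and was called at no day. So 4 mitotic members were not called lower at d15: Cenpf, Bub1, Bub1b and Kif11. For Kif11, 4 UMIs at d15 became 4 collapsed counts, whereas 44 at d0 became 15. As deposited, the share of each of these 4 genes in all UMIs was lower at d15 than at d0. With UMIs as deposited, 30 members were called lower at d15, against 27 with collapsed counts, so the list of exceptions depends on the rounding up.

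Between d15 and d36, the pair of like depth, 23 of the 37 members had enough UMIs. Of these, 7 were called higher at d36, against 1.77% of all genes, and 0 lower, against 3.02%. They were Mki67, Top2a, Birc5, Ube2c, Cdk1, Nusap1 and Hmgb2. The 6 mitotic genes among them reached the minimum by their d36 UMIs alone (35 to 80, against 0 to 12 at d15). Members low at both days fell below it, so the count of 7 is shaped by the minimum and carries no test. With a minimum of 100 UMIs, 1 member was called higher. The 4 cells of d36 with at least 3 mitotic members held 57.7% of the mitotic UMIs of that day. The ratio was 8.16 for Ube2c (2.48 to 42.3) and 4.42 for Top2a (1.21 to 24.2), and that of Hmgb2 was 1.54 (1.26 to 1.89). After the cell with the most mitotic UMIs of each day had been taken out, 3 members were called higher. With cells thinned to 2500 or 1200 UMIs 0 were, while the mitotic list still lay 2.04 (1.45 to 2.88) and 1.82 (1.27 to 2.65) times above d15.

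Among the S-phase members, the 6 MCM helicase genes divided into 3 that were called lower at d15 and 3 that were not. Mcm2 had 572, 135, 501 and 118 UMIs in 144, 38, 143 and 34 cells. Mcm3 had 1082, 323, 1131 and 290 UMIs in 285, 87, 307 and 79 cells, and Mcm4 had 442, 111, 459 and 94 in 122, 34, 158 and 32. No call was made for these 3 genes, whose ratios ran from 0.700 to 1.04. Mcm5, Mcm6 and Mcm7 were called lower at d15, with ratios of 0.519 (0.273 to 0.916), 0.600 (0.438 to 0.808) and 0.572 (0.388 to 0.822). Mcm5, with 293, 45, 350 and 18 UMIs, lay at 0.227 at d36 (0.0810 to 0.513), and Mcm7, with 695, 116, 769 and 99 UMIs, had a ratio with an interval of 0.329 to 0.736, both called lower. Mcm6 had 987, 185, 1052 and 224 UMIs and was not called at d36 (0.765). The 6 helicase genes together lay at 0.734 of d0 at d15 (0.641 to 0.839), 0.920 at d22 and 0.709 at d36 (0.617 to 0.813).

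Pcna, the polymerase clamp, had 1244, 420, 1653 and 338 UMIs in 462, 156, 574 and 122 cells. Its ratios of 1.04 (0.869 to 1.25), 1.07 and 0.842 were not called. Tyms, thymidylate synthase, had 702, 185, 779 and 186 UMIs and was not called either (0.814, 0.914 and 0.846). Rrm1 and Rrm2 encode the large and small subunits of ribonucleotide reductase. Rrm1 had 670, 115, 670 and 134 UMIs in 175, 33, 199 and 35 cells and was called lower at d15 (0.581) and d36 (0.628). Rrm2 had 302, 5, 350 and 31 UMIs in 36, 2, 31 and 5 cells. Its ratios were 0.0775 (0.00924 to 0.289), 0.940 (0.695 to 1.27) and 0.356 (0.157 to 0.707), and the call was lower for the first and the last. Tk1, thymidine kinase, had 184, 2, 163 and 18 UMIs in 31, 2, 26 and 8 cells and was called lower at d15 (0.123, 0.0146 to 0.468), with ratios of 0.748 and 0.567 at d22 and d36 that were not called. At d15 both lay among the ratios of the mitotic members that were called lower, and at d22 neither was called.

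The S-phase members differed in which cells held their UMIs, a measure taken over all days in the cells that carried at least 3 mitotic members. Those 52 cells held 84.6% of the UMIs of Rrm2 (582 of 688) and 73.8% of those of Tk1 (271 of 367). For the other 9 S-phase members the share ran from 4.56% for Mcm3 (129 of 2826) to 17.3% for Tyms (320 of 1852). Rrm2 was found in 37 of the 52 cells and in 37 of the other 8903, or 0.416%, and Pcna in 33 of the 52 but also in 1281 of the others, or 14.4%. Without Rrm2 and Tk1, the S-phase list lay at 0.803 at d15, 0.958 at d22 and 0.747 at d36.

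For a mitotic member the same share was counted over cells with at least 3 other mitotic members, of which there were 50 to 52. It was above 50% for 23 of the 24 and reached 94.9% for Ccna2 (223 of 235 UMIs), 92.2% for Aurkb, 91.8% for Birc5 and 91.4% for Mki67. Cenpa stood apart with 33.3% (305 of 916 UMIs), and was found in 191 of 8904 other cells (2.15%). Next lowest was Cdc20 with 52.1%. Among d0 cells with no other mitotic member, Birc5 had a UMI in 13 of 2319 cells (0.561%), Mki67 in 1 of 2307 (0.0434%) and Cenpa in 63 of 2369 (2.66%). Among all d0 cells the shares were 1.43%, 0.640% and 3.01%, so that for Cenpa most of the share was also present in cells with no other mitotic member. Median depth was 7505 UMIs in d0 cells with no mitotic member and 7653 in all d0 cells.

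**Figure D3:**
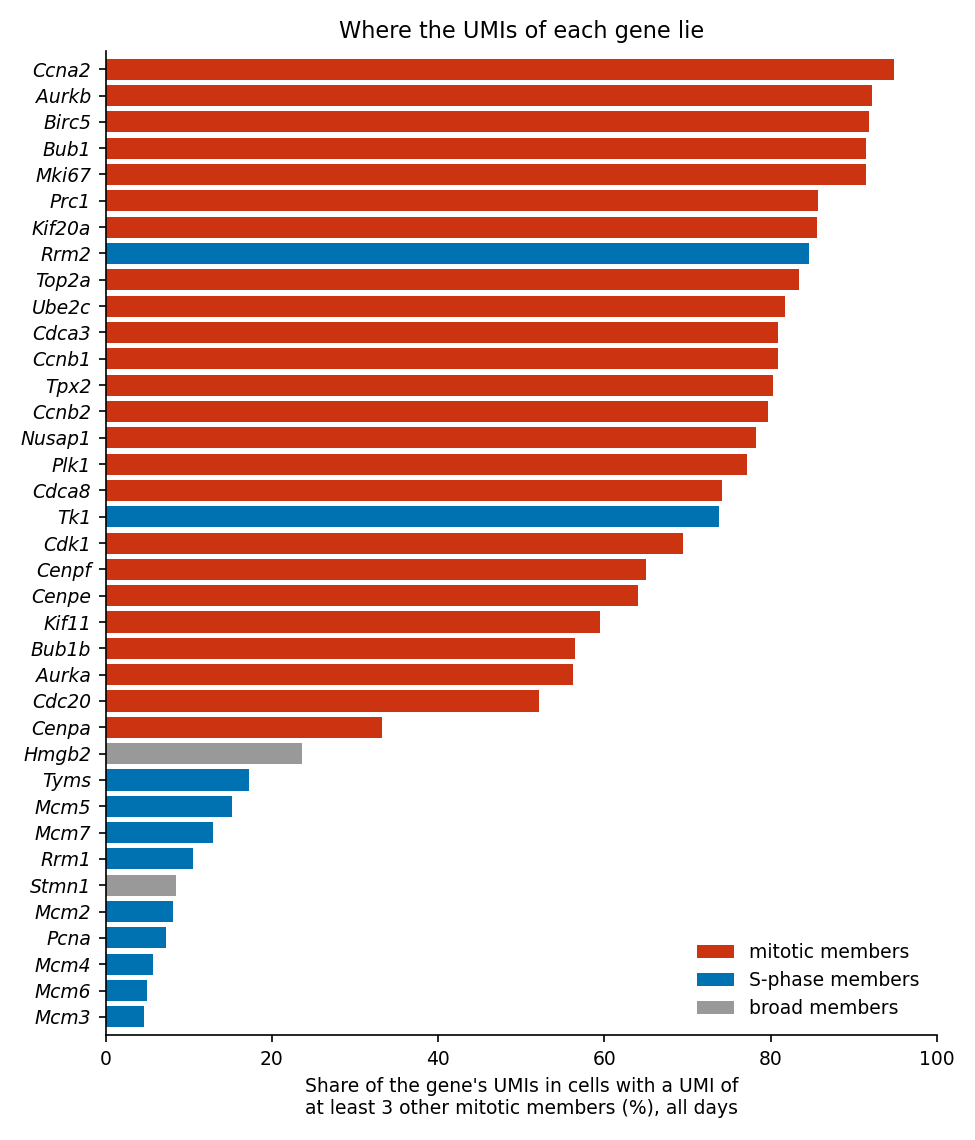
Share of each gene's UMIs, over all days, that lay in cells with a UMI of at least 3 other mitotic members (red, mitotic; blue, S-phase; grey, broad members). Rrm2 (84.6%) and Tk1 (73.8%) lie among the mitotic members and the remaining S-phase members at 17.3% or less.

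The broad members were common throughout. Hmgb2, a chromatin protein, had 3511, 558, 3969 and 869 UMIs in 601, 151, 717 and 191 cells. Its ratio was 0.555 at d15 (0.467 to 0.655), called lower, and 0.959 and 0.853 at d22 and d36, not called. Stmn1, which destabilises microtubules, had 17671, 3540, 19114 and 4190 UMIs in 1875, 638, 2196 and 711 cells. It lay at 0.677 at d15 (0.631 to 0.725), just short of the 1.5-fold limit, and at 0.892 and 0.829 at d22 and d36. Stmn1 was found in all 52 cells with at least 3 mitotic members and in 60.3% of the others, and Hmgb2 in 47 of the 52 and in 18.1% of the others.

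The 52 cells held 6085 of the 8366 mitotic UMIs. Of these cells 31 came from d0, 17 from d22 and 4 from d36, and 28 carried at least 10 mitotic members. Their median depth was above that of the other cells, 10648 against 7638 UMIs at d0, 11361 against 7649 at d22 and 9375 against 3408 at d36. The cell with the most, at d0, held 655 mitotic UMIs, 18.5% of those in the 31 cells of that day. Within the 52 cells the scaled mitotic level was 8381 in wild-type lung, 8825 after resection and 8935 with metastases. Since mitotic members chose the cells, these levels are a description only. The S-phase list in these cells lay at 1.39 of d0 at d22 (1.18 to 1.63), with Rrm2 and Tk1 at 1.88 (1.43 to 2.48), the list without them at 1.18 (0.955 to 1.44) and the helicase genes at 0.893 (0.658 to 1.20).

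S-phase genes were also found in most of those cells. At least 3 S-phase members had a UMI in 35 of the 52 (67.3%, 52.9% to 79.7%) and in 267 of 8903 other cells. For at least 5 the counts were 27 of 52 and 45 of 8903 (0.505%). A cell with no mitotic member could hold several S-phase members: 207 of 8103 such cells had at least 3 and 23 had at least 5. At d15, where no cell had 3 mitotic members, 12 cells had at least 3 S-phase members and 1 had at least 5. Median depth was 11004.5 UMIs in the 52 cells and 6376 in the others, and its part in the difference was not tested.

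**Figure D4:**
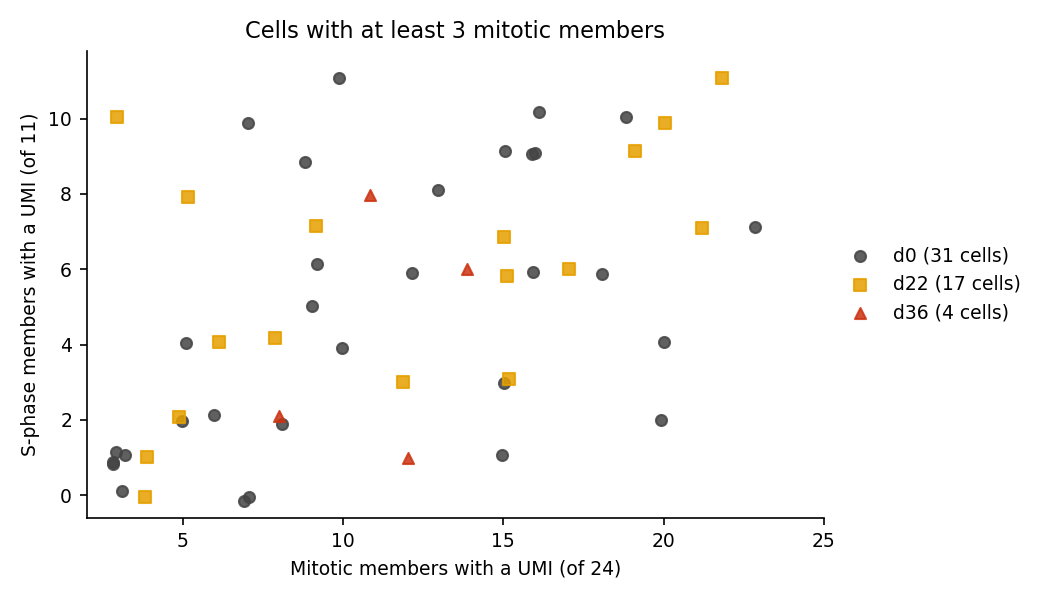
Number of mitotic members (x axis, of 24) and S-phase members (y axis, of 11) with a UMI in each of the 52 cells with at least 3 mitotic members, by day, with a small random shift to separate points. Cells range from 3 to 23 mitotic and from 0 to 11 S-phase members, and 4 have no S-phase member.

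Endothelial classes were clustered without cell cycle genes, and most of the 52 cells, 45, lay in clusters left unnamed. With cell cycle genes among the variable genes, 24 of the 52 formed most of a cluster of 25 cells led by Aurkb, Pbk and Birc5. No aerocyte-like cell carried 3 mitotic members, 0 of 1477, which allows a share of up to 0.203%, at a median depth of 10285 UMIs against 6034 in the unnamed cells. Nor did any arterial-like cell, 0 of 240, which allows up to 1.25%. Among venous-like cells there were 6 of 360 (1.67%, 0.614% to 3.59%), 5 of them at d0 and 1 at d36, and among lymphatic-like cells 1 of 70. In the unnamed clusters the share was 45 of 6808 (0.661%, 0.483% to 0.884%). The exact upper end for aerocyte-like cells, 0.249%, lies below the interval of the unnamed cells and of the venous-like cells. Of the unnamed clusters, that led by Socs3 and Aplnr held 15 of 1362 cells, and that led by Kit, Tmsb10 and Stmn1 held 10 of 601. That led by Cyb5r3 and Spop held 7 of 386, that led by Cd74 and class II genes 5 of 1528, and that led by Hmcn1 5 of 1110. In the clusters led by Socs3, Kit and Cd74 the general capillary list was 1.35- to 1.48-fold that of the other cells, short of the 3-fold needed for a name. It lay at 1.29-fold in the Hmcn1 cluster and 0.633-fold in the Cyb5r3 cluster. The cluster highest in that list, led by Hey1 (2.01-fold), held 1 of 959 cells.

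**Figure D5:**
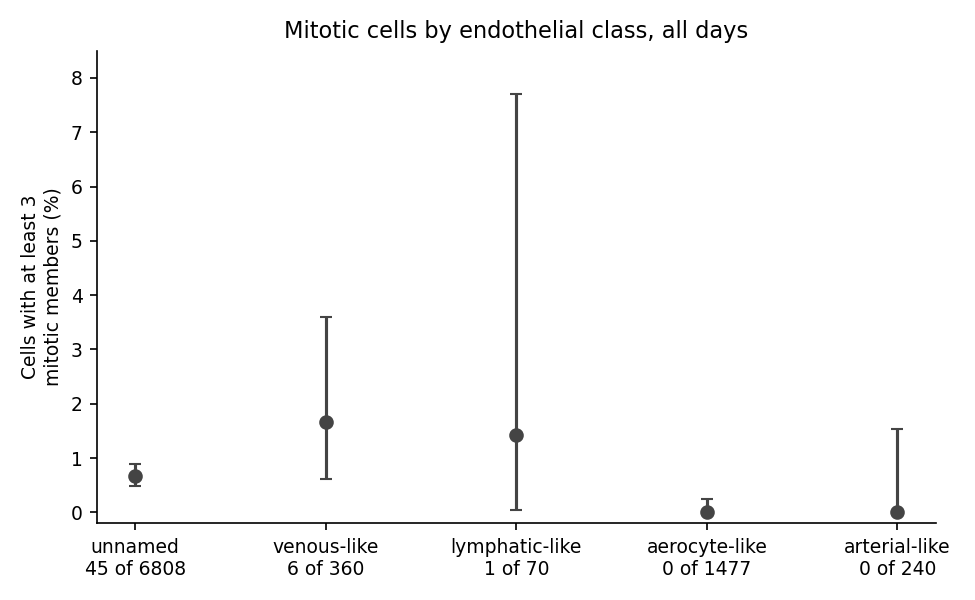
Share of cells with at least 3 mitotic members in each endothelial class, over all days, with exact 95% intervals and counts below the names. Aerocyte-like cells show 0 of 1477 and venous-like cells 6 of 360.

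Markers of other cell types were low in these 52 cells. Of 6 leukocyte markers, 5 were at 0 and the sixth, Arhgdib, was seen in 5 cells, at 29.5 in 1000000 UMIs against 33.5 for the list in other EC. The B-cell list was at 0 UMIs, as was the mesothelial list. The epithelial list lay at 87.0 on that scale against 177.9, the macrophage and monocyte list at 35.4 against 45.3, and the fibroblast list at 36.9 against 52.5. The mural list lay at 16.2 against 34.9. Of the lists for other cell types, erythroid and platelet (78.1 against 29.8), T and NK (7.37 against 2.70) and neutrophil (4.42 against 2.23) lay above the other EC, from 53 UMIs in 5 cells, 5 UMIs in 1 cell and 3 UMIs in 1 cell. The pan-endothelial list was found in all 52, at 10206 against 18299.5 in the rest. Doublets were not removed, since Scrublet called only 2 cells, and their part in these values was not tested.

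Further genes of the cycle, in lists that share no gene with the 37, were read against the shares of all genes called lower (5.07%, 4.39% and 6.25%) and higher (6.02%, 1.06% and 4.81%). Of 54 measured genes of the kinetochore, spindle and condensin, 21 were called lower at d15 and 1 higher, with a median ratio of 0.413. At d22 the count was 8 of 58 and at d36 11 of 56, with none higher. Kif18a, a kinesin, was the one called higher at d15 (ratio 2.40, 1.23 to 4.58). It had 84 UMIs in 24 cells at d0 and 20 UMIs in 18 cells at d15. Most of its d15 values were thus 1 UMI, which rounding up counts in full. As deposited, its share of all UMIs was lower at d15 than at d0. At d22, Kif2c with 3 UMIs against 28 at d0 had the lowest ratio (0.0935, 0.00213 to 0.675), followed by Nek2 (0.396). Of 38 measured genes of the replication origin and fork, 9 were lower at d15, 2 of 39 at d22 and 10 of 38 at d36, and none was called higher at those days. The d22 count of the replication list is near the share over all genes. Uhrf1, which reads newly replicated DNA, had 108, 4, 51 and 0 UMIs and was called lower each time.

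Of the list for transcriptional and kinase control of mitosis, 3 of 21 measured genes were lower and 1 higher at d15, 3 of 24 lower at d22, and 1 of 21 lower and 2 higher at d36. The median ratios of the list were 0.992, 0.978 and 0.983. Mastl, which restrains the phosphatase that opposes CDK1, was called higher at d15 (1.83, 1.25 to 2.65) and d36 (2.43, 1.71 to 3.42), with 189, 130, 241 and 193 UMIs. Wee1, which inhibits CDK1, was higher at d36 (2.91, 1.23 to 6.79), from 48 UMIs in 12 cells. E2f1, an activator of S-phase genes, had 170, 8, 102 and 22 UMIs and was lower at d15 (0.432) and d22 (0.592). Mybl2 had 40, 8, 12 and 12 UMIs and was lower at d22 only (0.234), and Foxm1, with 21, 8, 29 and 4 UMIs, was called at no day.

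Among 16 measured cyclins and kinases of G1, Ccnd1 was the one gene called, lower at d15 (0.548, 0.474 to 0.631) and at d36 (0.637, 0.556 to 0.729). It had 4846, 786, 4310 and 895 UMIs in 854, 178, 809 and 200 cells. A count of 1 in 16 is near the share of all genes called lower at those days (5.07% and 6.25%). The cell cycle inhibitors as a list did not lie lower, with medians of 1.09, 1.06 and 1.07. Cdkn1a, the p21 gene, had 11500, 4325, 10546 and 4861 UMIs in 1266, 663, 1345 and 741 cells, with ratios of 1.30, 0.780 and 1.46 that were within the 1.5-fold limit. Cdkn1b lay at 1.39, 1.27 and 1.33, and Cdkn1c at 1.12, 1.25 and 1.37, none of them called. Of the 16 inhibitors, 2 were called lower and 1 higher at d15, 1 lower at d22, and 2 lower and 1 higher at d36. Cdkn2b was lower at d15 (0.482) and d36 (0.415), and Ccng1 at d15 (0.488) and d22 (0.642). Cdkn2a was higher at d15 (1.60) but lower at d36 (0.493), and Gadd45g was higher at d36 (1.61).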

How the data were processed

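The authors deposited 1 table of counts, the UMIs per gene and cell. Per the submitters' processing notes, Cell Ranger 2.1.1 and the build mm10 were used; no source used here gives the annotation or a cell filter. Single-cell libraries came from 16 samples, 4 for each of 4 days, and columns name the day only. Of the nonzero values 47.9% equal 4 and 7.44% equal 8, against 2.96% for 5, so that 1 UMI could not be taken as 1 molecule. Ratios, intervals and calls therefore use the value divided by 4 and rounded up, where the plan had the deposited UMIs. The cause of the pile-up was not tested.

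Cells with at least 300 genes, at most 10% mitochondrial UMIs and under 2% UMIs of any other cell type's marker list were kept, which left out 19 and 62 of 9036 cells. The left-out cells included 0 with at least 3 mitotic members. Scrublet called 2 cells (0.0222%), too few to have worked, and none was removed. Clustering used 2000 variable genes without cell cycle genes, 30 components, 15 neighbours and Leiden resolution 1.0 (scanpy 1.11.5, leidenalg 0.10.2). A cluster was named when at least 2 of its 10 leading genes (detected in at least 25% of its cells) and none of another class were markers, and the list was at least 3-fold higher, thresholds set after the clusters had been seen. Intervals are exact, binomial (Clopper-Pearson) for shares and ratios and Poisson for levels, at 95%, with a floor of 3 counts for a value of 0 (scipy 1.17.1, numpy 2.4.6, pandas 2.3.3). Calls were tried on simulated day sums with independent Poisson counts for each gene. Such sums leave out that UMIs of a gene can lie in few cells, so they cannot show how the calls fare there. TMM factors came from edgeR 4.0.16.

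The members and gene lists were chosen with earlier results of these data known. All members are named, with the 2 highest and lowest ratios of the other lists considered, 7 regulators and 10 further genes by enrichment, of which 1 is not reported here. By the GENCODE vM21 annotation, 7 members overlap another gene on the same strand and 5 have a named copy elsewhere (Ccnb1, Ccnb2, Pcna, Stmn1 and Tyms), whose reads could have been split. Alternatives were other cell sets, thinning, TMM scaling, other thresholds and other clusterings.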

Additional observations from a re-analysis of the deposited data

How the results depend on the processing

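The direction of the mitotic and S-phase ratios to d0 was the same under every setting tried except 1, in which cells with at least 3 mitotic members were left out, a choice made on the genes measured. Then the mitotic ratio was 0.892 at d15, 0.743 at d22 and 1.18 at d36, above 1, and 1.32 for d36 over d15, the S-phase ratio at d15 was 0.879, and 3, 1 and 2 members were lower at d15, d22 and d36. Thinned to 2500 UMIs, the mitotic ratio at d15 was 0.310 and the S-phase ratio at d22 0.874, and 12, 7 and 4 members were lower. Thinned to 1200, the mitotic ratio was 0.328 at d15 and 1.82 for d36 over d15, the S-phase ratio 0.861 at d15 and 0.831 for d36 over d15, and 7, 5 and 4 members were lower. Thinned to 800 collapsed counts, 8, 6 and 3 were. Fewer counts remain after thinning. With UMIs as deposited, the mitotic ratio at d15 was 0.175 and 21 members were lower at d36. Without cells above the 99th percentile of UMIs, the mitotic ratio at d22 was 0.428 and 22 members were lower at d22, and with a ratio of at least 2, 9 were. Without Pcna, the S-phase member with the most counts, the d15 ratio was 0.676. Settings with deposited UMIs, 800 collapsed counts and left-out top cells were chosen after seeing the data.

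With at least 2 mitotic members, the shares of cells were 2.15%, 0.602%, 1.31% and 0.753% at d0, d15, d22 and d36, and thinned to 800 collapsed counts the d0 share was 0.723%. For S-phase members the shares were 14.7%, 4.15%, 14.4% and 4.58% with at least 2, and 1.32%, 0.0669%, 1.06% and 0.125% with at least 5. Thinned to 2500 UMIs they were 2.34% at d0, 0.385% at d15 and 1.68% at d22, thinned to 1200 UMIs 1.02%, 0.0669%, 0.654% and 0.251%, and thinned to 800 collapsed counts 0.761%, 0%, 0.726% and 0.207%. Other clusterings left both the aerocyte-like and the venous-like share within their intervals. In all, 182 values stayed near those of the main setting. Of the rest, 37 ratios or shares moved away, 13 counts of members fell, 2 counts rose and 1 ratio reversed. Some settings, such as leaving out the 2 cells called by Scrublet, changed few cells. For ratios and shares, staying near meant within the interval of the main setting, and for counts of members within 1.5-fold of the main count. Staying near did not require the same direction. Without Pcna, the S-phase ratio of d36 over d15 was 1.03 (0.885 to 1.19), against 0.959 (0.845 to 1.09) in the main setting. No paired analysis was possible because cells could be assigned to a day and not to a numbered library, and no left-out library could be tried. The number of cells limits what a count of 0 shows at d15, and members missed at low depth come on top of that.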

Other observations

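Genes outside the 37 were read in the 52 cells with at least 3 mitotic members, as ratios of collapsed levels to the other EC, among genes with at least 20 UMIs in the 52. Among the highest ratios were those of Cdca5, Sapcd2, Melk, Pbk, Arhgef39, E2f8, Hmmr, Ncapg and Depdc1a. Pbk, a mitotic kinase, had 442 UMIs in 33 of the 52 cells and 33 UMIs in 18 other cells. Hmmr, a spindle protein, had 198 UMIs in 20 of the 52 and 12 in 9 others, and Cdca5, which protects sister chromatid cohesion, had 109 in 18 and 1 in 1. Melk had 107 UMIs in 16 of the 52 and Ncapg, a condensin subunit, 50 in 12. Of the genes named here, Sapcd2, Arhgef39 and Depdc1a stand in none of the lists used above. The 52 cells were chosen by mitotic genes, so these ratios describe the choice and carry no test.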
